A study of Mus musculus with 14 samples.

Results

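The 40 genes described here are members of the cell cycle and proliferation programme, listed by symbol with no cut on a measured value. They were chosen with earlier results of these data known. Each gene was read from its brightest probe set, by mean log2 level over the 14 arrays, among those annotated with that symbol alone. Of the 40 genes 39 had such a probe set, out of 18194 genes in all. For Ccnb1 there was no probe set with only its symbol, and it was not analysed here. The arrays measured RNA of whole lungs from BALB/c mice, each perfused with PBS to clear blood from its vessels. In 4 lungs the mouse bore a 4T1 tumour and in 5 a 67NR tumour, both grown from mouse breast carcinoma cells injected into the fourth mammary fat pad, and 5 normal lungs came from control mice that received PBS alone. The labels call 4T1 metastatic and 67NR non-metastatic, and lungs were taken 6 days after inoculation or at a tumour volume of about 50 mm3. Age and sex of the mice are not given in the sources used here. With 1 cell line per tumour class, ability to spread and any other property of a line cannot be told apart. The labels do not tie arrays to mice, so the spread behind each p-value is that between samples, which may be technical.

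A dividing cell copies its DNA in S phase and separates the copies in mitosis. The genes of S phase, such as the Mcm helicase subunits and the ribonucleotide reductase subunits, are activated by E2F factors. The genes of mitosis, such as cyclins, mitotic kinases and spindle proteins, follow through CCAAT boxes and a promoter element called the cell cycle genes homology region (CHR). Resting cells largely repress both sets, and most cells of an adult lung are resting. In RNA of whole lung, fewer dividing cells and less transcript per dividing cell cannot be told apart.

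Promoters are shown for 4 genes, to make visible elements known from the control of the programme: Top2a and Mki67 from the mitotic genes, Mcm6 and Cdc6 from the licensing of replication. Each line gives the 150 bases before the annotated start, 5′ to 3′ on the strand of the gene, from RefSeq on build GRCm38.p6. Capitals mark matches, on either strand, to CCAAT, to the CHR letters TTTGAA or TTCGAA, or to the E2F letters TTTCCCGC, TTTCGCGC, TTTGCCGC or TTTGGCGC; matches may overlap.
Top2a (chr11:99024190-99024339, minus strand): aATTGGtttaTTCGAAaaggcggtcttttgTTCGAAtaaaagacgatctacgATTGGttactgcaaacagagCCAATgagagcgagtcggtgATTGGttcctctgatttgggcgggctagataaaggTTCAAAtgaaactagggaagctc
Mki67 (chr7:135716380-135716529, minus strand): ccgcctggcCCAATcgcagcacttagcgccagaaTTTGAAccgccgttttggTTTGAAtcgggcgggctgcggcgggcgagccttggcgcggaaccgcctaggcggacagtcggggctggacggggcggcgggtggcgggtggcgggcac
Mcm6 (chr1:128359706-128359855, minus strand): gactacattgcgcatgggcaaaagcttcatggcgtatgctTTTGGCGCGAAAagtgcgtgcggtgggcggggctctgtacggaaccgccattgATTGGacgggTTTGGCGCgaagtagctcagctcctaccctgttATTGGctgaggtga
Cdc6 (chr11:98908001-98908150, plus strand): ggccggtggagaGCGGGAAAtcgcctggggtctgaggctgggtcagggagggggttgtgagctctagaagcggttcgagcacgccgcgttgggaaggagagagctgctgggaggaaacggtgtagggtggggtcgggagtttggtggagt

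The stretch of Top2a holds CCAAT boxes and CHR letters, and that of Mki67 holds CHR letters and a single CCAAT box. That of Mcm6 holds E2F letters and CCAAT boxes, and that of Cdc6 a single E2F match. A promoter was given for 34 of the 40 genes, and for Aurkb, Ccna2, Ccne2, Kif20a, Mcm4 and Tpx2 none was. In windows from 250 bases before to 50 after the start, a CCAAT match stood in 27 of the 34 (79.4%), against 37.9% of the 27025 promoters of all genes. CHR letters stood in 19 of the 34 (55.9%), against 19.4% of all promoters, and E2F letters in 6 (17.6%), against 2.32%. Base composition was not matched, and a match describes letters, not a bound site.

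The arrays were on 1 scale, with median intensities between 113.2 and 116.1. Levels are given as log2(intensity + 16), which understates the change of dim genes. No detection call was used here. Signal also depends on the probe, so a ranking of genes by level, as in the level filter below, is only approximate. A log2 ratio of 3′ to 5′ Gapdh signal, a measure of RNA integrity, lay between -0.50 and -0.39 in 4T1, -0.58 and -0.36 in 67NR and -0.55 and -0.41 in normal lungs. The 12 markers of lung epithelium and endothelium, among them the surfactant genes Sftpc and Sftpb, were all above the level filter described next.

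No cell cycle gene passed the test in any comparison. Genes entered the test when their mean level lay in the upper 60% of all genes, a mean log2 level of at least 7.35. This left 10916 genes and 20 of the 39 cell cycle genes; the dimmest of these was Ccna2 at 7.42, and the nearest below the filter was Ccnb2 at 7.25. A gene counted as changed at a limma adjusted p under 0.05, with Benjamini-Hochberg adjustment over the 10916 genes. The other 19 were fitted without the filter, over all 18194 genes. There too 0 of the 39 were called higher and 0 lower, where limma called 0.269% of all genes higher and 0.0055% lower in 4T1 against normal lung. For 67NR lung against normal it called 0.0055% higher and 0% lower, and against 67NR lung it called 0.264% higher and 0.0715% lower in 4T1.

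In 4T1 against normal lungs 13 of the 20 tested genes had positive changes and 0 were called. Top2a, Prc1 and Rrm2 had the largest log2 changes, of 0.45, 0.55 and 0.35. Limma called 0 of the 20 higher and 0 lower, where it called 0.412% of all genes tested higher and 0% lower. At an unadjusted p under 0.05 there were 3 higher and 0 lower, where 3.58% of all genes were higher and 2.98% lower. That count was 1 without the _x_at and _s_at probe sets and 0 over the 7 genes in the upper 40% of level. The median log2 change of the 20 was 0.107, against -0.001 for all genes tested, and 49.5% of all genes had positive changes. Without the filter 28 of the 39 were positive, where 48.8% of all genes were, and at an unadjusted p under 0.05 there were 5 higher and 0 lower, where 3.12% were higher and 2.74% lower. The smallest adjusted p of the 20 was 0.503. Every 95% interval of the 20 lay within a 2-fold change (1 on the log2 scale) in either direction, and 17 lay within 1.5-fold (0.58). The median was 0.047 without normal replicate 3, 0.055 without normal replicate 2 and 0.067 without 4T1 replicate 3. It was 0.046 with arrays weighted by quality, 0.049 over the 7 genes in the upper 40% of level and 0.061 when all probe sets of a gene were averaged. It was -0.017 when probe sets with the suffix _x_at or _s_at, whose probes may match other transcripts, were left out where a gene had another.

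In 67NR against normal lungs the same genes had changes of both signs, but the genes of replication licensing all had negative changes. Limma called 0 of the 20 higher and 0 lower, and 0% of all genes in each direction. At an unadjusted p under 0.05 there were 0 higher and 1 lower, Mcm6, where 4.62% of all genes were higher and 4.52% lower. That count was 0 without 67NR replicate 5, normal replicate 1 or normal replicate 4, 2 without normal replicate 2 and 3 without normal replicate 3. The median log2 change was -0.013, against -0.001 for all genes, and 9 of the 20 were positive, against 49.6%. The median was -0.089 over the 7 genes in the upper 40% of level, 0.008 when all probe sets of a gene were averaged, -0.058 without normal replicate 2 and 0.009 without normal replicate 1. Without the filter 19 of the 39 were positive, where 49.5% of all genes were, and at an unadjusted p under 0.05 there were 0 higher and 1 lower, where 3.65% were higher and 3.51% lower. No gene of the 39 had 67NR arrays clear of the normal arrays: 0 of the 20 tested were higher, where 0.852% of all genes tested were, and 0 lower, where 0.797% were. Without the filter the shares of all genes were 0.676% and 0.61%. The smallest adjusted p was 0.475. All 20 intervals lay within a 2-fold change and 19 within 1.5-fold; that of Mcm6 reached down to -0.91.

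In 4T1 against 67NR lungs 16 of the 20 tested genes had positive changes, against 49.6% of all genes tested, led by Mcm6, Prc1 and Rrm2. Limma called 0 of the 20 higher and 0 lower, where it called 0.559% of all genes higher and 0.202% lower. At an unadjusted p under 0.05 there were 5 higher, Mcm5, Mcm6, Prc1, Rrm2 and Mcm2, and 0 lower, where 6.22% of all genes were higher and 6.22% lower. That count was 2 without 4T1 replicate 1, 2 without 67NR replicate 4, and 3 without 4T1 replicate 2, 67NR replicate 2 or 67NR replicate 5. It was also 2 without the _x_at and _s_at probe sets. The median log2 change was 0.104, against -0.001 for all genes, and the smallest adjusted p was 0.251. The median was 0.064 without 67NR replicate 4 and 0.171 over the 7 genes in the upper 40% of level. It was 0.161 without 67NR replicates 1 and 3, whose clock genes were lowest, and 0.033 without the _x_at and _s_at probe sets. Intervals of 19 genes lay within a 2-fold change and only 14 within 1.5-fold. That of Mcm6 reached up to 1.01 and that of Ccne1 down to -0.61. The comparisons with normal lung share the normal arrays, so their values stand side by side and are not independent.

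**Figure D1:**
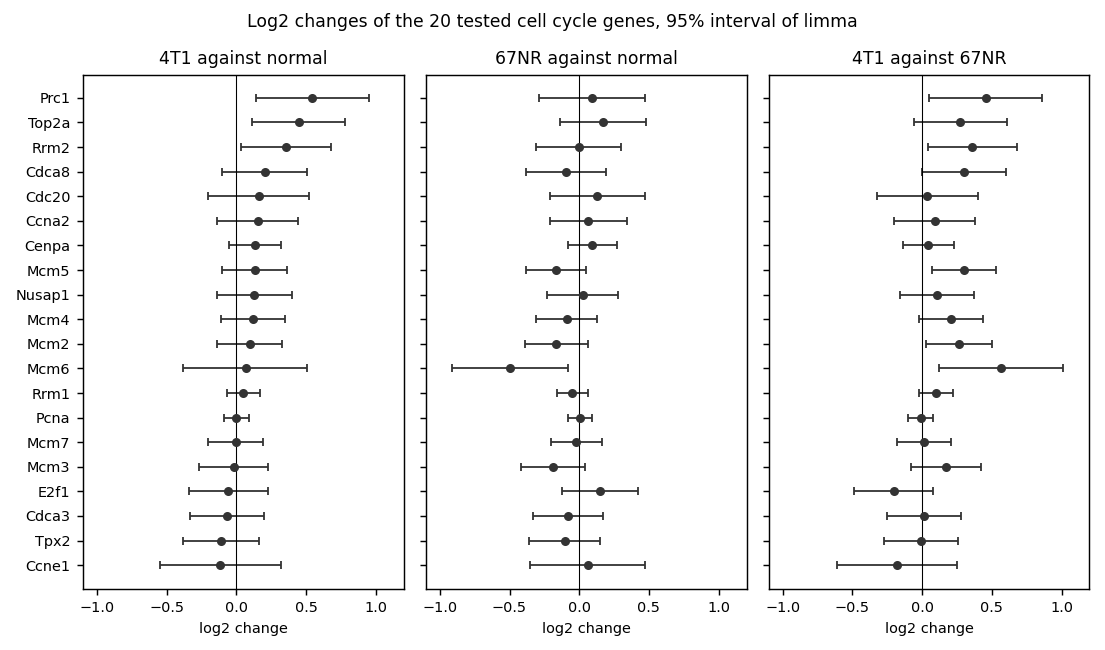
Log2 changes of the 20 tested cell cycle genes (horizontal axis) in 4T1 against normal, 67NR against normal and 4T1 against 67NR lungs, with 95% intervals from limma; genes are ordered by the first panel. Prc1 and Top2a have the largest changes in 4T1 against normal lung (0.55 and 0.45), and Mcm6 the lowest in 67NR against normal lung (-0.50).

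The arrays of a group differed among themselves in these genes, and many of the genes stood high or low on the same arrays. The median within-group SD of the 20 tested genes was 0.20 on the log2 scale, beside 0.11 for all genes tested. The 20 were also dimmer, with a mean level of 8.31 to 8.67 on the normal arrays, beside 9.44 to 9.48 for all genes tested. Genes matched in level were not compared. The normal lungs spread most. On normal replicates 2 and 3, 29 and 30 of the 39 genes lay below the mean of their group, while on replicates 1, 4 and 5 there were 32, 32 and 30 above it. For all genes tested the share below the group mean was 56.7% and 53.7% on replicates 2 and 3. It was 48.2%, 42.7% and 47.1% on replicates 1, 4 and 5. The mean deviation of the 39 genes from their mean over 14 arrays was 0.11, -0.24, -0.21, 0.13 and 0.05 on normal replicates 1 to 5. It was 0.08, 0.07, 0.09 and 0.16 on the 4T1 arrays and 0.07, -0.07, 0.02, -0.15 and -0.11 on the 67NR arrays. The 4T1 arrays thus sat within the span of the normal arrays except replicate 4, and the low end of the normal group was formed by replicates 2 and 3.

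**Figure D2:**
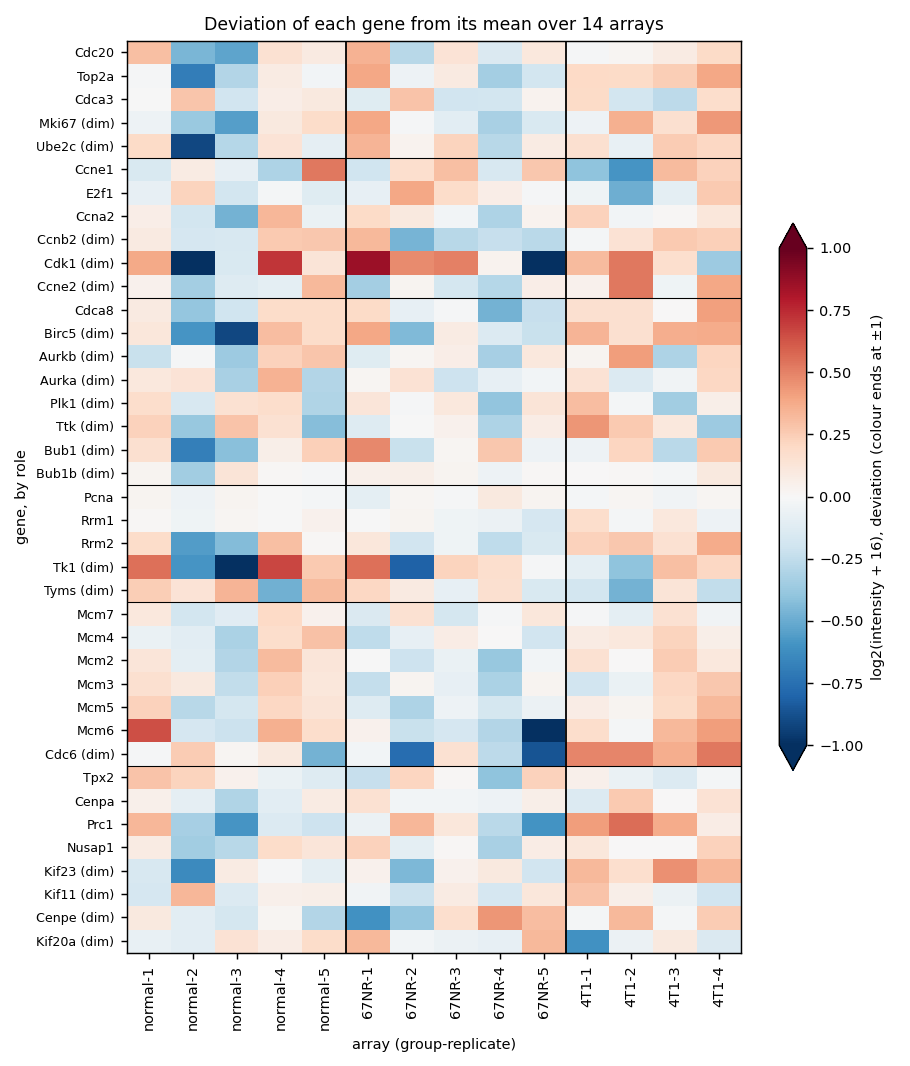
Deviation of each of 39 cell cycle genes (rows, grouped by role) from its own mean over 14 arrays (columns), in log2(intensity + 16), red above and blue below, with colour ending at 1 in either direction; genes marked dim lie under the level filter. Normal replicates 2 and 3 are mostly blue, with only 9 and 10 of the 39 genes above their own mean over the 14 arrays. Of all genes tested 44.5% and 47% lay above their own mean on these arrays.

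**Figure D3:**
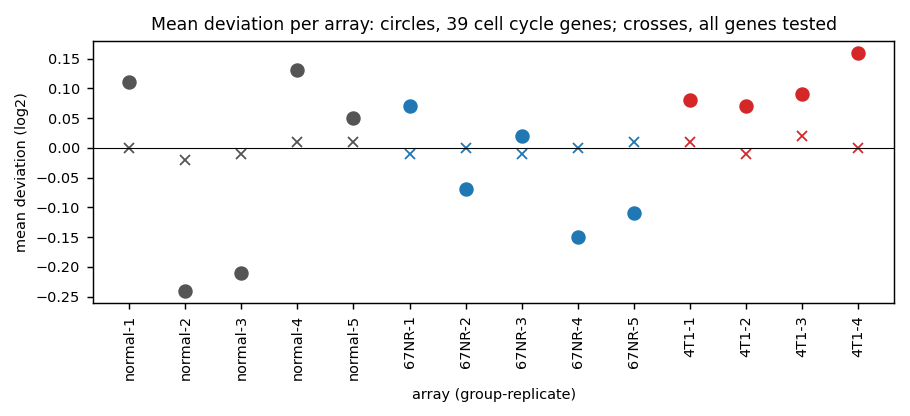
Mean log2 deviation per array (vertical axis) of the 39 cell cycle genes (circles) and of all genes tested (crosses), coloured by group. The circles span -0.24 to 0.16, while the crosses stay between -0.02 and 0.02.

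Markers of several immune cells were also lowest on normal replicates 2 and 3: those of B and plasma cells, NK cells, macrophages and mature neutrophils. Those of T cells, of neutrophil and monocyte precursors and of erythroid cells were not. Markers of lung epithelium and endothelium were highest on these arrays. Of the 8 listed B and plasma cell markers 7 had a value. Their mean deviation was 0.36, -0.18, -0.39, 0.16 and 0.09 on normal replicates 1 to 5. On the 4T1 arrays it was 0.20, -0.40, 0.37 and -0.30. On the same normal arrays NK cell markers stood at 0.15, -0.19, -0.24, -0.01 and -0.07, macrophage markers at 0, -0.18, -0.03, 0.01 and 0.22, and T cell markers at 0.24, -0.08, 0.03, -0.05 and -0.09. On normal replicates 1 to 5 mature neutrophil markers stood at -0.57, -0.96, -0.83, -0.69 and -0.40. Precursor markers stood at -0.34, -0.26, -0.28, -0.20 and 0.09, and erythroid markers at -0.38, -0.57, -0.01, -0.06 and -0.37. Lung epithelium and endothelium markers stood at 0.03, 0.08, 0.06, -0.03 and -0.16. The mean log2 level of the B and plasma cell markers spanned 9.05 to 9.82 in 4T1 and 9.19 to 9.68 in 67NR lungs. In normal lungs it spanned 9.05 to 9.8. The 67NR arrays with the lowest clock gene levels, replicates 1 and 3 (mean deviation -2.12 and -1.53 over 8 clock genes), had the highest means of their group over the 39 genes, 0.07 and 0.02, but not over the 20 tested genes, where 67NR replicates 1 to 5 stood at 0, 0.01, 0, -0.20 and -0.08. The part of these markers in the cell cycle values was not tested. The Gapdh ratio was -0.41 and -0.46 on normal replicates 2 and 3, and -0.42, -0.49 and -0.55 on the others; its part was not tested.

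Among genes of chromatin and mitotic exit, Top2a, the topoisomerase that untangles replicated DNA, separated 4T1 from normal lungs. Its log2 levels were 8.04, 8.03, 8.09 and 8.23 in 4T1, 8.23, 7.79, 7.93, 7.5 and 7.66 in 67NR and 7.83, 7.15, 7.55, 7.92 and 7.81 in normal lungs. All 4 4T1 arrays lay above all 5 normal arrays, but 67NR replicate 1 equalled the highest of them. The log2 change was 0.45 in 4T1 against normal lung (1.36-fold, SE 0.16, limma adjusted p = 0.503) and 0.17 in 67NR. Of the 20 tested genes 1, Top2a, had 4T1 arrays above all normal arrays, where 1.4% of all genes tested did, and 0 had them below, where 1.32% did. Further, dimmer probe sets of Top2a had changes of 0.16 and -0.01.

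Cdc20, the activator of the anaphase-promoting complex, had levels of 8.68, 8.71, 8.77 and 8.88 in 4T1, 9.04, 8.41, 8.83, 8.55 and 8.8 in 67NR and 8.99, 8.23, 8.16, 8.84 and 8.78 in normal lungs. Its groups overlapped fully, with log2 changes of 0.16 in 4T1 and 0.13 in 67NR against normal lung. Cdca3, which promotes entry into mitosis, had changes of -0.07 and -0.08. Of the genes under the level filter, Mki67, the proliferation antigen Ki-67 that coats mitotic chromosomes, had levels of 7.12, 7.53, 7.33 and 7.61 in 4T1, 7.56, 7.16, 7.07, 6.85 and 7.02 in 67NR and 7.12, 6.8, 6.62, 7.27 and 7.36 in normal lungs. Its normal arrays were lowest on replicates 2 and 3, and 67NR replicate 1 reached the upper 4T1 arrays. The change was 0.37 in 4T1 against normal lung (SE 0.17, limma adjusted p = 0.864 without the filter). Ube2c, the ubiquitin-conjugating enzyme of the anaphase-promoting complex, had changes of 0.33 and 0.28 in 4T1 and 67NR, and normal replicate 2 was its lowest array at 6.

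**Figure D4:**
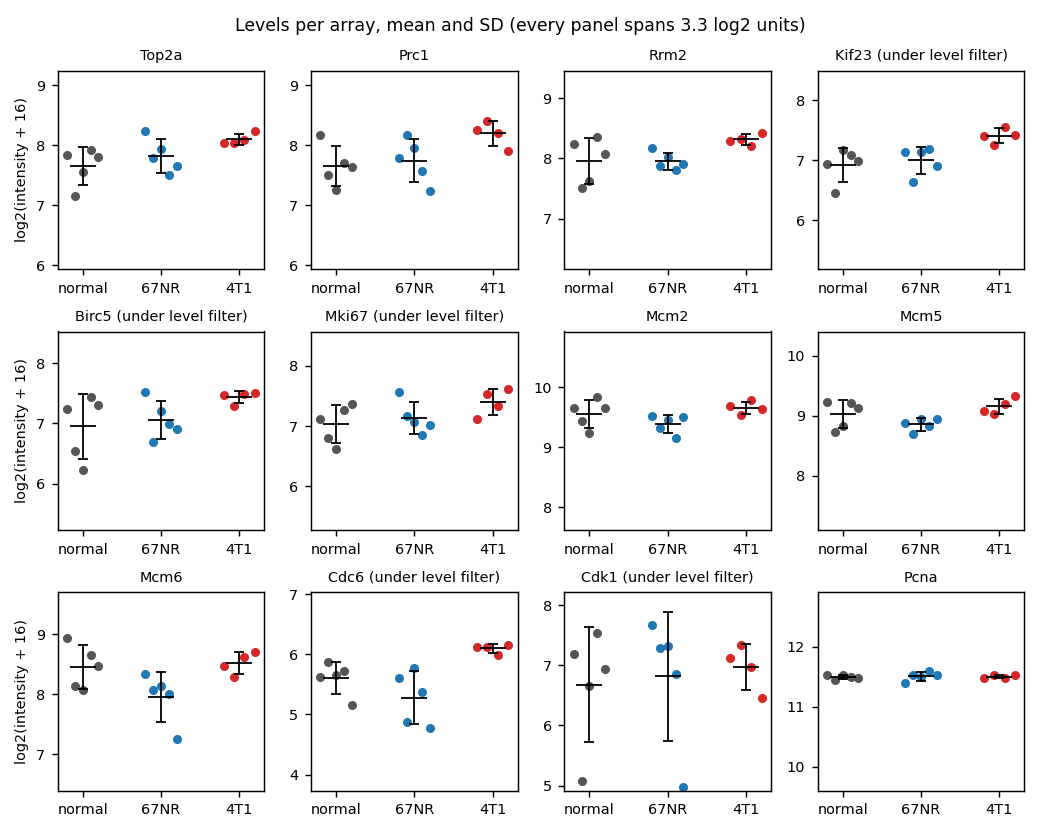
Log2(intensity + 16) per array (points), with mean and SD (bars), of 12 cell cycle genes in 5 normal, 5 67NR and 4 4T1 lungs; each panel spans the same height on its own axis. The 4T1 arrays of Top2a, Kif23 and Cdc6 lie above all normal arrays, and those of Pcna at 11.47 to 11.52 among them.

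Of the mitotic kinases, checkpoint genes and chromosomal passengers only Cdca8 was above the level filter. Cdca8, borealin, a subunit of the chromosomal passenger complex, had levels of 7.62, 7.62, 7.46 and 7.87 in 4T1, 7.65, 7.38, 7.45, 6.99 and 7.23 in 67NR and 7.55, 7.07, 7.26, 7.64 and 7.64 in normal lungs. The groups overlapped, with log2 changes of 0.21 in 4T1 against normal lung (limma adjusted p = 0.91) and 0.30 in 4T1 against 67NR lung (adjusted p = 0.409). Birc5, survivin, of the same complex, had levels of 7.47, 7.29, 7.49 and 7.5 in 4T1, 7.52, 6.69, 7.21, 6.99 and 6.91 in 67NR and 7.24, 6.54, 6.22, 7.44 and 7.31 in normal lungs. Its normal arrays fell into a low pair, replicates 2 and 3, and 3 arrays within reach of the 4T1 values. Its SD was 0.54 in normal lungs (n = 5) against 0.10 in 4T1 lungs (n = 4), beside a change of 0.48 (SE 0.24, limma adjusted p = 0.884 without the filter).

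The other 6 genes of this group were dim. In 4T1 against normal lung the log2 change was 0.05 for Aurka and 0.11 for Aurkb, the kinases of the spindle poles and of the passenger complex. It was 0.16 for Bub1 and 0.06 for Bub1b, of the spindle checkpoint, 0.14 for the checkpoint kinase Ttk and -0.01 for the polo-like kinase Plk1. In 67NR against normal lung the same genes lay between -0.04 for Ttk and 0.22 for Bub1.

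Among spindle and centromere genes Prc1, which bundles the microtubules of the central spindle, had the largest change of the 20 in 4T1 against normal lung. Its levels were 8.26, 8.4, 8.21 and 7.91 in 4T1, 7.78, 8.17, 7.95, 7.57 and 7.24 in 67NR and 8.17, 7.51, 7.25, 7.7 and 7.63 in normal lungs. Of the normal arrays only replicate 1 reached the 4T1 range, and the 67NR arrays spread from 7.24 to 8.17. The log2 change was 0.55 (1.46-fold, SE 0.19, limma adjusted p = 0.503) against normal lung and 0.46 against 67NR lung (SE 0.19, adjusted p = 0.342). Over 26 alternatives the change against normal lung ranged from 0.36 to 0.68 and its adjusted p from 0.238 to 0.828. A further probe set of Prc1 had changes of 0.18 and 0.07 in these comparisons.

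Kif23, a kinesin of the central spindle, lay under the level filter, and its values are listed per array, like those of Cdc6, Cdk1 and Mki67, after they were seen. They were 7.41, 7.26, 7.55 and 7.42 in 4T1, 7.13, 6.64, 7.13, 7.19 and 6.9 in 67NR and 6.93, 6.45, 7.17, 7.08 and 6.99 in normal lungs. All 4T1 arrays lay above all normal and all 67NR arrays. Its log2 change was 0.49 against normal lung (SE 0.14, limma adjusted p = 0.457 without the filter) and 0.41 against 67NR lung (SE 0.14, adjusted p = 0.353). In the fit without the filter 3 of the 39 genes, Top2a, Kif23 and Cdc6, had 4T1 arrays above all normal arrays, where 1.21% of all genes did, and 0 had them below, where 1.19% did. Of 2 further and dimmer probe sets of Kif23, changes against 67NR lung were -0.30 and -0.06, opposite in sign.

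Tpx2, which nucleates spindle microtubules, had levels of 8.6, 8.48, 8.41 and 8.53 in 4T1, 8.32, 8.76, 8.56, 8.15 and 8.78 in 67NR and 8.83, 8.77, 8.59, 8.48 and 8.42 in normal lungs. Cenpa, the histone variant of centromeres, had levels of 7.92, 8.32, 8.06 and 8.2 in 4T1, 8.21, 8.03, 8.03, 8.01 and 8.12 in 67NR and 8.11, 7.97, 7.76, 7.95 and 8.14 in normal lungs. Both overlapped in all 3 groups, with changes against normal lung of -0.11 and 0.14 in 4T1 and -0.10 and 0.09 in 67NR. Nusap1, another spindle protein, had changes of 0.13 and 0.02. The dim genes Kif11, Kif20a and Cenpe, motors of the spindle, the midzone and the kinetochore, had changes of 0, -0.22 and 0.22 in 4T1 and -0.07, 0.05 and 0.08 in 67NR.

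The cyclin group held 3 tested genes. Ccne1, the cyclin that drives entry into S phase, had levels of 7.33, 7.14, 8.05 and 7.96 in 4T1, 7.53, 7.9, 8.03, 7.57 and 8 in 67NR and 7.58, 7.81, 7.65, 7.42 and 8.26 in normal lungs. The 4T1 arrays alone spanned nearly the whole range of the 14. E2f1, an activating E2F factor, had levels of 7.45, 7, 7.39 and 7.75 in 4T1, 7.41, 7.88, 7.67, 7.56 and 7.48 in 67NR and 7.41, 7.71, 7.31, 7.47 and 7.37 in normal lungs, again without separation. Their changes in 4T1 against 67NR lung were -0.18 and -0.20, opposite in sign to most of the 20. Another, dimmer probe set of each pointed up against normal lung, by 0.47 for Ccne1 and 0.43 for E2f1 in 4T1. Ccna2, the cyclin of S and G2 phase, had changes of 0.15 in 4T1 and 0.07 in 67NR against normal lung.

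The mitotic kinase Cdk1 varied most within groups. Its levels were 7.13, 7.34, 6.98 and 6.45 in 4T1, 7.67, 7.29, 7.32, 6.85 and 4.97 in 67NR and 7.19, 5.07, 6.66, 7.53 and 6.94 in normal lungs. A pair of arrays, 67NR replicate 5 and normal replicate 2, stood near 5 while the other 12 lay between 6.45 and 7.67, and the within-group SD was 0.89. Changes were 0.29 in 4T1 and 0.14 in 67NR against normal lung, with SE 0.55 and 0.52. Cyclin B2, Ccnb2, had changes of 0.10 and -0.25, and Ccne2 of 0.26 and -0.11; both were lower in 67NR than in 4T1 lung, by 0.34 and 0.37 on the log2 scale (limma adjusted p = 0.493 and 0.452 without the filter).

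The licensing genes load and form the Mcm helicase at replication origins. In their brightest probe sets the changes had 1 sign in each comparison with 67NR lung, without a call. All 6 tested Mcm genes had negative changes when 67NR was set against normal lung, from -0.50 to -0.02. They had positive ones when 4T1 was set against 67NR lung, from 0.02 to 0.56. Of all genes tested 49.6% had positive changes in either comparison. The change of Mcm7 turned sign in 5 of 28 alternatives in each. The median change was -0.168 and 0.237, and 0 of the 6 passed in either comparison. The mean deviation of the 7 licensing genes was -0.11, -0.20, -0.05, -0.20 and -0.29 on the 67NR arrays and 0.17, -0.07, -0.19, 0.23 and 0.06 on the normal arrays, so these groups overlapped, while the 4T1 arrays stood at 0.11, 0.06, 0.25 and 0.24. Further probe sets of Mcm5 and Mcm7 had changes of 0.47 and 0.07 in 67NR against normal lung, opposite in sign. In 4T1 against 67NR lung further probe sets of Mcm3, Mcm5 and Mcm7 had changes of -0.03, -0.79 and -0.01, also opposite in sign. In 4T1 against normal lung the median of the 6 tested Mcm genes was 0.081, with 4 of 6 positive.

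Mcm6 had the largest of these changes. Its levels were 8.47, 8.28, 8.62 and 8.71 in 4T1, 8.34, 8.07, 8.13, 8 and 7.25 in 67NR and 8.94, 8.13, 8.08, 8.65 and 8.47 in normal lungs. 67NR replicate 5 lay far below the other arrays at 7.25, and normal replicate 1 was highest. For 67NR minus normal the log2 change was -0.50 (SE 0.20, limma adjusted p = 0.475), and for 4T1 minus 67NR it was 0.56 (1.48-fold, SE 0.21, adjusted p = 0.27). Without 67NR replicate 5 these were -0.32 and 0.39. A second probe set of Mcm6 had changes of -0.26 and 0.43.

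Mcm5 had the smallest p of the 20 tested genes in 4T1 against 67NR lung. Levels on the arrays were 9.07, 9.03, 9.19 and 9.32 in 4T1, 8.87, 8.69, 8.95, 8.82 and 8.94 in 67NR and 9.23, 8.72, 8.82, 9.21 and 9.13 in normal lungs. Every 4T1 array lay above every 67NR array, and the normal arrays spanned both. The change was 0.30 (1.23-fold, SE 0.11, limma adjusted p = 0.251); those of its dimmer probe sets were 0.12 and -0.79, the latter opposite in sign. Mcm2 had levels of 9.68, 9.53, 9.78 and 9.63 in 4T1, 9.52, 9.32, 9.46, 9.15 and 9.5 in 67NR and 9.65, 9.43, 9.23, 9.84 and 9.65 in normal lungs. It too separated 4T1 from 67NR lungs, though the closest arrays lay at 9.53 and 9.52, with a change of 0.26 (SE 0.11, adjusted p = 0.348).

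For Mcm3 the levels were 8.88, 9, 9.28 and 9.34 in 4T1, 8.83, 9.1, 8.99, 8.75 and 9.1 in 67NR and 9.23, 9.17, 8.82, 9.31 and 9.18 in normal lungs. For Mcm4 they were 10.1, 10.12, 10.24 and 10.07 in 4T1, 9.76, 9.93, 10.09, 10.02 and 9.82 in 67NR and 9.95, 9.91, 9.7, 10.19 and 10.31 in normal lungs. Mcm7 had levels of 10.05, 9.97, 10.22 and 10.03 in 4T1, 9.92, 10.22, 9.89, 10.05 and 10.18 in 67NR and 10.17, 9.88, 9.95, 10.26 and 10.11 in normal lungs. All 3 overlapped between the groups, with changes in 4T1 against 67NR lung of 0.17, 0.21 and 0.02. A further probe set of Mcm4 had a change of 0.02 there, and those of Mcm3 between -0.03 and 0.31.

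Cdc6, which loads the Mcm helicase onto origins, was dim. In the fit without the filter it had the smallest p of the 39 genes in 4T1 against 67NR lung, though not in the other comparisons. Its levels were 6.12, 6.12, 5.99 and 6.16 in 4T1, 5.6, 4.87, 5.78, 5.37 and 4.77 in 67NR and 5.62, 5.88, 5.65, 5.73 and 5.16 in normal lungs. The 4T1 arrays lay closely together, with an SD of 0.07 (n = 4), above every normal and every 67NR array. Its log2 change was 0.82 in 4T1 against 67NR lung (1.76-fold, SE 0.20, limma adjusted p = 0.141) and 0.49 against normal lung (SE 0.20, adjusted p = 0.768). In 67NR against normal lung it was -0.33. With a mean intensity of 35.6 its probe set lay at percentile 17.1 of all genes by level, and it had no other.

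In all, 3 of the 20 tested genes, Mcm5, Mcm2 and Rrm2, had 4T1 arrays above all 67NR arrays, where 2.35% of all genes tested did, and 0 had them below, where 2.22% did. Without the filter these were 5 of the 39, with Cdc6 and Kif23 added, where 1.77% of all genes did, and 0 lay below, where 1.73% did. Positive changes were held by 31 of the 39, where 49.3% of all genes had them. At an unadjusted p under 0.05 the fit without the filter held 9 of the 39 higher and 0 lower, where 4.77% of all genes were higher and 4.53% lower.

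The genes of nucleotide supply and the replication clamp split into steady and variable ones. Pcna, the sliding clamp of DNA polymerase, had levels of 11.48, 11.52, 11.47 and 11.52 in 4T1, 11.4, 11.52, 11.49, 11.6 and 11.53 in 67NR and 11.53, 11.45, 11.53, 11.5 and 11.48 in normal lungs. It was nearly constant, with a within-group SD of 0.05 and changes of 0 and 0.01 in 4T1 and 67NR against normal lung. Rrm1, the large subunit of ribonucleotide reductase, had levels of 9.17, 8.97, 9.1 and 8.94 in 4T1, 8.99, 9.02, 8.95, 8.93 and 8.82 in 67NR and 9, 8.95, 9.01, 8.99 and 9.03 in normal lungs. Its changes were 0.05 and -0.05.

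Rrm2, the small subunit whose level follows S phase, was not steady. Its levels were 8.29, 8.33, 8.21 and 8.43 in 4T1, 8.17, 7.87, 8.02, 7.81 and 7.91 in 67NR and 8.24, 7.5, 7.63, 8.36 and 8.07 in normal lungs. The 4T1 arrays lay above every 67NR array, and the normal arrays split into replicates 2 and 3 at 7.50 and 7.63 and the others at 8.07 to 8.36. The log2 change was 0.35 against normal lung (SE 0.15, limma adjusted p = 0.69) and 0.36 against 67NR lung (SE 0.15, adjusted p = 0.343). Both further probe sets had changes of the same sign, 0.42 and 0.39 against normal lung. The dim thymidine enzymes Tk1 and Tyms had changes of 0.03 and -0.30 in 4T1 against normal lung, and Tk1 spread from 5.21 to 6.90 among the normal arrays.

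Of the 39 genes 28 had several probe sets, 89 in all. Among the 20 tested genes 11 were represented by an _x_at or _s_at probe set. In 4T1 against 67NR lung 10 of these 11 had positive changes, with a median of 0.209, and 6 of the other 9 did, with a median of 0.089. In 4T1 against normal lung the medians were 0.12 and 0.067.

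Other genes of the pathway were as little moved. Of the listed further S phase genes 38 of 41 had a value and 26 were tested; 0 passed in any comparison, and median log2 changes against normal lung were 0.017 in 4T1 and -0.069 in 67NR. The median of 4T1 against 67NR was 0.074. Positive changes were held by 17 of the 26 in 4T1 and 3 of the 26 in 67NR against normal lung, where 49.5% and 49.6% of all genes tested had them, and by 22 of the 26 in 4T1 against 67NR, where 49.6% did. Of 54 further G2 and M phase genes 26 were tested and 0 passed, with medians of 0.019, -0.013 and 0.067 in the same order. Positive changes were held by 17, 11 and 22 of these 26, where 49.5%, 49.6% and 49.6% of all genes tested had them. The smallest limma adjusted p of that list was 0.0776, for Hmgb2, a chromatin protein abundant in dividing cells and named here for its value, which had a log2 change of 0.43 in 4T1 against normal lung (SE 0.09).

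Genes upstream of the programme did not pass either. Of 22 G1 cyclins, kinases and E2F family genes 17 were tested, with 0 called in any comparison. Ccnd1, the cyclin that starts G1, had changes of -0.01 and 0.02 in 4T1 and 67NR against normal lung. Foxm1, a transcription factor of the mitotic genes, had -0.10 and -0.22, and Myc, under the level filter, 0.12 and 0.03. Of 24 genes that restrain division 21 were tested and 0 passed. Among them the Cdk inhibitor Cdkn1a had a log2 change of 0.71 in 67NR against normal lung (1.63-fold, SE 0.28, limma adjusted p = 0.475) and 0.21 in 4T1, and its relative Cdkn1b had 0.07 and 0.19.

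The cell cycle genes stayed uncalled in lungs where neutrophil genes were called. All 8 tested of 9 markers of mature neutrophils, cells that no longer divide, rose in 4T1 against normal lung, with a median log2 change of 2.133, and all 8 were higher than in 67NR lung. The mean log2 level of these 8 spanned 10.57 to 11.09 in 4T1, 8.64 to 9.41 in 67NR and 8.5 to 9.06 in normal lungs. Of 10 genes listed as markers of neutrophil and monocyte precursors 4 were tested and 1, the granule gene Ngp, rose, by 2.34. The changes of the other 3 were 0.77 for Ltf, -0.09 for Ms4a3 and -0.11 for Chil3, which also stands on the macrophage list. Whether the cells that carry the granule genes divide was not tested. In the fit without the filter Camp, another granule gene, rose too, by 2.67 (limma adjusted p = 0.0372), while Prtn3, Mpo, Elane and Ctsg had changes of 1.4, 0.28, 0.13 and -0.03 and did not pass. The list's mean level spanned 7.44 to 8.23 in 4T1, 6.64 to 7.03 in 67NR and 6.82 to 7.26 in normal lungs. The listed erythroid genes had a median of 0.759 in 4T1 against normal lung over 3 tested of 9, and 0 passed; their mean level spanned 7.7 to 8.16 in 4T1, 7.21 to 7.82 in 67NR and 6.92 to 7.49 in normal lungs. Of 8 epithelial keratin and adhesion markers that mammary tumour cells carry 6 were tested and 0 passed, with medians of -0.055 in 4T1 and 0.019 in 67NR against normal lung. Lung epithelium also expresses several of these markers. The part of any of these cells in the cell cycle values was not tested.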

How the data were processed

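Lung RNA of 14 samples was hybridised to Affymetrix mouse arrays, 1 array per sample; biotin-labelled cRNA was made from 3 µg of RNA, per the labels' protocols. The authors deposited linear probe set intensities, 45101 per array; probe summary and normalisation are not given in the sources used here. Precision is limited by the number of arrays. Samples were grouped by their titles. Probe sets were named through GEO's platform annotation of the array, with 34958 probe sets carrying 1 symbol, 932 several and 9211 none here, and only the first kind was used.

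Intensities became log2(intensity + 16) with no further normalisation. Group means over the 14 arrays were compared by limma (version 3.58.1, R 4.3.3; functions lmFit and eBayes) with 11 residual degrees of freedom, two-sided. The procedure was tested on simulated data with planted changes. A pass was required only for the largest planted changes, which exceeded all those of the cell cycle genes. The test thus does not show that changes of their size would be called. Intervals are 95% intervals of limma. Every gene of the programme is named; values per array are given for the 2 with the highest mean level in each role and the 4 with the smallest p in each comparison. The genes and lists were chosen with earlier results of these data known, so no p was computed over a list. Promoters came from RefSeq; where a gene had several windows, the one listed first was used.

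Alternatives covered quantile and median normalisation, offsets of 1 and 64, level filters, the mean of all probe sets, variance models, fits of only the groups compared, the replicate number as a block, and leaving out arrays. Of the further lists, up to 4 genes past the threshold were to be named, of which there were 0, and Ccnd1, Myc, Foxm1, Cdkn1a and Cdkn1b whatever their result. T cell, NK cell and macrophage markers had median log2 changes of -0.027, 0.065 and -0.006 in 4T1 against normal lung over 6, 6 and 8 tested genes, with 0 passing.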

Additional observations from a re-analysis of the deposited data

Results flagged for a closer look

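A test for a sample far from the others of its group was run on 120 sets of values, those of 39 genes and of their mean in 3 groups, and 4 were singled out; chance gives about 1 in 20. Birc5 on 4T1 replicate 2 stood at a log2 level of 7.29, below the other 4T1 arrays at 7.47 to 7.50. Mcm3 on normal replicate 3 stood at 8.82, below the others at 9.17 to 9.31. Plk1 on 67NR replicate 4 stood at 6.13, below the others at 6.51 to 6.65. Tyms on normal replicate 4 stood at 4.99, below the others at 5.61 to 5.81.

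Mcm5 was singled out because all 4 4T1 arrays lay above the normal mean of 9.02 and all 5 67NR arrays below it. The difference of 4T1 and 67NR lungs was tested directly: 0.299 on the log2 scale, with a limma adjusted p = 0.251.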

How the results depend on the processing

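The counts of cell cycle genes past the threshold, 0 in each comparison, were 0 under each of the 28 alternatives as well. The smallest limma adjusted p of any tested gene of the programme over these was 0.238 for 4T1 minus normal, 0.258 for 67NR minus normal and 0.1 for 4T1 minus 67NR, the last in a fit of only those groups. Calls over all genes, 45, 0 and 83 in the reported fits, ran from 26 to 67, 0 to 11 and 41 to 184. The median log2 change of 4T1 against normal lung, 0.107, moved to -0.017 without the _x_at and _s_at probe sets, an alternative added after the data were seen, in which 16 of the genes were tested; the cause of the shift was not tested. Leaving out 1 array at a time, the medians lay between 0.047 and 0.146 in 4T1 against normal, -0.058 and 0.009 in 67NR against normal, and 0.064 and 0.139 in 4T1 against 67NR lung. Over all alternatives, single genes had 33, 30 and 31 sign changes among 538 values in each of the 3 comparisons, and 0 of the genes passed on either side. The largest reported change that turned sign was 0.163, -0.167 and 0.299 in size, Cdc20, Mcm5 and Mcm5, each of which has probe sets that disagree. With the replicate number as a block the counts stayed at 0 and the medians were 0.132, -0.013 and 0.117. Correlations of the deviations of same-numbered arrays ran from -0.34 to 0.22 over 13 pairs, with 3 over 0.1. Arrays of different number were not compared in this way, so these values cannot decide whether the numbers pair the samples. The 19 genes under the level filter were dim, and no measure of signal over background was used here.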
